A study of Homo sapiens with 3 samples.

Results

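Glycolysis and glucose transport genes were followed in micropatterned colonies of HES3 MIXL1:GFP cells, which are human embryonic stem cells of an established line that report the streak gene MIXL1 by green fluorescence. The 10 members are a list of symbols drawn up with earlier results of these data known, with no measured value in the rule itself, and all 10 of them were found among the 38606 genes of each library, with 1 Ensembl ID each. They were the glucose transporters SLC2A1 (ENSG00000117394) and SLC2A3 (ENSG00000059804), the early enzymes HK2 (ENSG00000159399), PFKP (ENSG00000067057) and ALDOA (ENSG00000149925), the later enzymes PGK1 (ENSG00000102144), ENO1 (ENSG00000074800) and ENO2 (ENSG00000111674), the lactate dehydrogenase subunit LDHA (ENSG00000134333) and the lactate exporter SLC16A3 (ENSG00000141526). Colonies received 3 µM CHIR99021 with 100 ng/mL Activin A (CHIR+Activin), 6 µM CHIR99021 alone (CHIR) or 50 ng/mL BMP4 (BMP4). CHIR99021 inhibits GSK3 and thereby activates WNT signalling, Activin A signals through the receptors that NODAL also uses, and BMP4 is a ligand of the BMP pathway. In all arms the cells were seeded with 10 µM of the ROCK inhibitor Y-27632, left for 24 h and exposed to the treatment during the next 48 h. Each arm was 1 droplet-based 3' single-cell RNA library of about 10 pooled colonies, so nothing was replicated, no untreated colonies were among the libraries analysed here, and no test between treatments was possible. CHIR+Activin and CHIR also differed in the dose of CHIR99021, so the effect of Activin A cannot be told apart from that of the dose.

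Glycolysis splits glucose into pyruvate in the cytosol and yields ATP without oxygen, and LDHA turns the pyruvate into lactate, which SLC16A3 carries out of the cell. Pluripotent human cells are known for high glycolysis, and their shift toward oxidative metabolism differs between germ layers. Most members are textbook targets of the hypoxia-inducible factors, which bind DNA at a core of the letters ACGTG or GCGTG.

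The number of transcripts was counted as unique molecular identifiers (UMIs), and a level is given in CPM, the UMIs of a gene in 1000000 UMIs summed over the cells of a library or class. Kept cells numbered 6876 in CHIR+Activin, 7084 in CHIR and 9401 in BMP4, with at least 2000 genes and at most 15% of UMIs from mitochondrially encoded genes. They held 130592423, 185215378 and 137174566 UMIs, with medians of 17202, 22919.5 and 12623 UMIs per cell. Pairs of libraries shared between 8 and 12 cell barcodes. SOX2, a factor of pluripotent cells, was found in 48.2%, 43.1% and 13.95% of cells of CHIR+Activin, CHIR and BMP4, TBXT, a factor of the primitive streak, in 32.7%, 32.8% and 72.1%, and MESP1, a factor of nascent mesoderm, in 2.64%, 0.580% and 56.6%, after each cell had been thinned to 10000 UMIs. Intervals are exact 95% intervals that cover counting error only, not the variation between colonies or cultures. A gene was counted as higher or lower when 2 levels were at least 1.5-fold apart and the gene reached 10 CPM on either side, and the share of all genes past that mark is given beside the members as the background.

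The upstream sequences of members with contrasting motif content are shown to let the letters be read beside the members' values. Of the 10 members, 9 had entries in the RefSeq promoter table (build GRCh38.p14), with 20 start sites. Each line holds the 250 bases before a start, 5′ to 3′ on the strand of the gene, with capitals for ACGTG on either strand, so that a match on the opposite strand reads CACGT. DDIT4 is included as the gene by which cells were sorted below, and SLC2A1 as a member whose window held no match.
LDHA, chr11:18394313-18394562, plus strand: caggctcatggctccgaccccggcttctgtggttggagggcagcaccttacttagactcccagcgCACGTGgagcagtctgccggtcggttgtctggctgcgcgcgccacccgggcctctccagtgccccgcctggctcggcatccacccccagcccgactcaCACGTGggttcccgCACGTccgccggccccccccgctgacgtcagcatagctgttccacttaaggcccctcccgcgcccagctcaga
PGK1, chrX:78103998-78104247, plus strand: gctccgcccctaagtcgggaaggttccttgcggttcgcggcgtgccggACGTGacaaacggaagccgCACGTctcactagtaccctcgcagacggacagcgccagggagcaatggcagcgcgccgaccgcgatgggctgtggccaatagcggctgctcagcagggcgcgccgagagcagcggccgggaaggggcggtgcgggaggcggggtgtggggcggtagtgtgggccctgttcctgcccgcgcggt
ENO2, chr12:6914330-6914579, plus strand: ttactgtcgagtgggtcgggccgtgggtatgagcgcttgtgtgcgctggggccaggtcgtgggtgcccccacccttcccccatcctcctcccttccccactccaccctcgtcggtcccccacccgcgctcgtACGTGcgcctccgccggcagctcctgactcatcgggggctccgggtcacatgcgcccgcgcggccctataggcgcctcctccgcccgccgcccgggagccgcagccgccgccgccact
SLC2A1, chr1:42958869-42959118, minus strand: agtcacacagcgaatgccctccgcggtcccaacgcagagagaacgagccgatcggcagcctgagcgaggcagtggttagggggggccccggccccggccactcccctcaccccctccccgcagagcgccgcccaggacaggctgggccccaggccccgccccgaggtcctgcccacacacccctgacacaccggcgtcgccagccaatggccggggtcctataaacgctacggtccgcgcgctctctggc
DDIT4, chr10:72273674-72273923, plus strand: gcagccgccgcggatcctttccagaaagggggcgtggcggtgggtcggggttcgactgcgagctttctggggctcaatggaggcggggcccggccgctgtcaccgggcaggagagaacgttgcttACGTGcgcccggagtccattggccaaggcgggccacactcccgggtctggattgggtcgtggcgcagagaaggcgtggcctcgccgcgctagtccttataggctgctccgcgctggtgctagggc
The LDHA window shown held ACGTG 5 times when both strands were read, where CACGTG counts once on each strand. A further LDHA window, chr11:18396101-18396350, held ACGTG 0 times and GCGTG 1 time. The PGK1 window held ACGTG 2 times, and the ENO2 and DDIT4 windows 1 time each. Over the members, 10 of 20 windows held ACGTG at least once, while 18.5% of all 35116 windows of that length did. With GCGTG counted as well, 15 of the 20 windows had a match, against 43.2% of all windows. By gene, 8 of the 9 had a match in at least 1 window, and no share over all genes was computed. Some genes had several windows, and windows of ALDOA overlap. The letters TGATGNAA, the core of elements bound by ATF4 and CHOP, were in 0 of the 20 windows and in 3.14% of all. A match describes letters in a window and does not show that a factor binds there.

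Every member stood higher in both CHIR-treated libraries than in BMP4. In CHIR over BMP4, 7 of the 9 members with enough UMIs were at least 1.5-fold higher and none lower, where 8.16% of 10122 genes were at least 1.5-fold higher and 6.04% lower. In CHIR+Activin over BMP4, 4 of 9 were at least 1.5-fold higher and none lower, where the background was 5.36% higher and 5.63% lower. The median log2 ratio of the members was 0.93 in CHIR over BMP4, beside 0.03 over all genes, and 0.58 in CHIR+Activin over BMP4, beside -0.01 over all genes. Both comparisons share the BMP4 library, so they do not stand as separate evidence. SLC16A3 passed the 10 CPM filter only through the CHIR-treated libraries, at 14.98 CPM in CHIR+Activin and 21.2 CPM in CHIR against 9.05 CPM in BMP4. In CHIR+Activin over CHIR the median was -0.24, beside -0.05 over all genes, and 0 of 9 members were 1.5-fold apart, where 0.601% of genes were higher and 0.367% lower.

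Among the transporters that bring glucose in, SLC2A1 stood at 149 CPM in CHIR+Activin, 183 CPM in CHIR and 94.5 CPM in BMP4. Its log2 ratio was 0.66 (interval 0.63 to 0.69) in CHIR+Activin over BMP4 and 0.95 (interval 0.92 to 0.98) in CHIR over BMP4. SLC2A3, the high-affinity neuronal and stem cell transporter, stood at 515, 653 and 356 CPM in CHIR+Activin, CHIR and BMP4. The order of the libraries was the same for both transporters, with CHIR highest and BMP4 lowest. SLC2A3 has a near-identical copy, SLC2A14, listed at 20.3, 25.7 and 10.9 CPM, and the sources used here do not say how shared reads were counted, so both levels are uncertain.

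The early enzymes showed ratios of different size. HK2, the hexokinase that phosphorylates glucose, stood at 44.6 CPM in CHIR+Activin, 52.8 CPM in CHIR and 26.1 CPM in BMP4, 2.02-fold higher in CHIR than in BMP4. PFKP, the platelet form of phosphofructokinase, stood at 65.7, 72.6 and 52.04 CPM, with a log2 ratio of 0.48 (interval 0.44 to 0.52) in CHIR over BMP4, under the 1.5-fold mark. ALDOA, the aldolase that splits the hexose, had only 8.10, 8.59 and 6.57 CPM and was not among the 9 members compared. In a GENCODE annotation, 42.3% of its exon bases lie under another gene of the same strand, ENSG00000285043, which had 0.391, 0.351 and 0.372 CPM, so the ALDOA level may not hold all of its transcripts, and this was not tested.

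Of the later enzymes, PGK1, which makes the first ATP of the pathway, stood at 587 CPM in CHIR+Activin, 682 CPM in CHIR and 357 CPM in BMP4, 1.64-fold and 1.91-fold higher than BMP4 under CHIR+Activin and CHIR. ENO1, the general enolase, was nearly flat, at 1066 CPM in CHIR+Activin, 1059.8 CPM in CHIR and 875 CPM in BMP4. Its log2 ratio was 0.28 (interval 0.27 to 0.29) in CHIR over BMP4 and 0.01 in CHIR+Activin over CHIR. ENO2, the neuronal enolase, stood at 19.7, 27.8 and 13.8 CPM in CHIR+Activin, CHIR and BMP4, with a log2 ratio of 1.01 (interval 0.94 to 1.09) in CHIR over BMP4. The ratios of the enolases thus differed.

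At the lactate end, LDHA stood at 638 CPM in CHIR+Activin and 653 CPM in CHIR, against 427 CPM in BMP4. SLC16A3 stood at 14.98 CPM in CHIR+Activin, 21.2 CPM in CHIR and 9.05 CPM in BMP4, and 5.36% of its exon bases lie opposite CSNK1D, which makes its level uncertain where strand was not used in the counting. It had the highest ratio of the members in CHIR over BMP4, 1.23 (interval 1.14 to 1.32), and 3 members there (HK2, ENO2 and SLC16A3) were at least 2-fold higher, where 2.85% of genes were. The members thus ran from 0.28 for ENO1 to 1.23 for SLC16A3 in 1 comparison of libraries. Between CHIR+Activin and CHIR, ENO2 and SLC16A3 had the lowest ratios, -0.50 each, while ENO1 and LDHA were at 0.01 and -0.03.

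**Figure D1:**
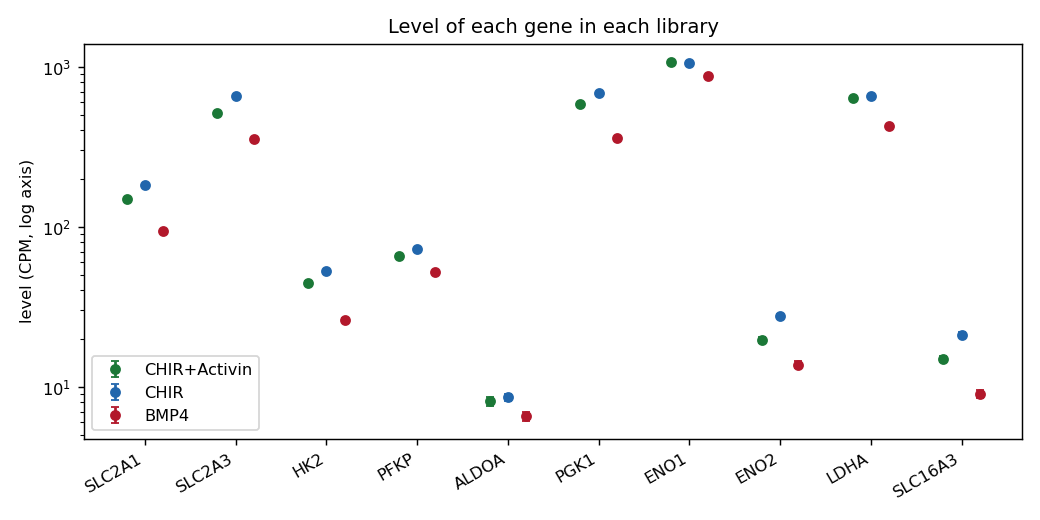
Level of each gene in CPM on a log axis in the CHIR+Activin, CHIR and BMP4 libraries, 1 library each, with bars for the exact 95% counting interval, which is often smaller than the point. For every gene except ENO1, where CHIR+Activin is level with CHIR, the CHIR point is highest, and the BMP4 point is lowest throughout.

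**Figure D2:**
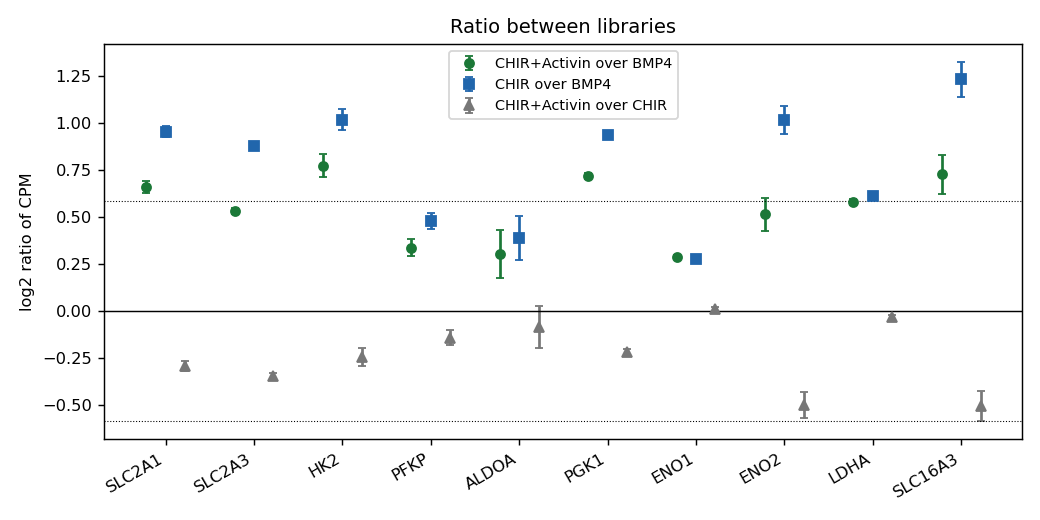
Log2 ratio of CPM for each gene in the 3 pairs of libraries, with bars for the exact 95% counting interval and dotted lines at 1.5-fold in either direction. All points over BMP4 are above 0, from 0.28 (ENO1) to 1.23 (SLC16A3), and CHIR+Activin over CHIR stays inside the dotted lines; ALDOA is drawn although it was under 10 CPM in every library.

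Not all of glycolysis stood apart between the libraries. Of 13 other glycolysis enzymes and transporters with enough UMIs, 3 were at least 1.5-fold higher in CHIR+Activin and 3 in CHIR than in BMP4, and 0 lower in either. Their medians were 0.13 and 0.14. The highest were SLC2A14 (0.90 and 1.24) and the aldolase ALDOC (0.90 and 1.08). The lowest were the hexokinase HK1, at 65.2 CPM in CHIR+Activin, 61.9 CPM in CHIR and 88.1 CPM in BMP4, and the pyruvate kinase PKM, at 268, 274 and 292 CPM. The hexokinases therefore ran in opposite directions, HK2 higher and HK1 lower in the CHIR-treated libraries, although HK1 at -0.43 and -0.51 stayed inside 1.5-fold.

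Among glycolysis regulators, 3 of 8 were at least 1.5-fold higher in CHIR+Activin and 5 of 8 in CHIR than in BMP4. PFKFB4, which makes an activator of phosphofructokinase, stood at 20.6 CPM in CHIR+Activin, 28.4 CPM in CHIR and 9.34 CPM in BMP4. TXNIP, a glucose-induced inhibitor of glucose uptake, stood at 60.1, 70.5 and 23.4 CPM. The RNA of HIF1A, a hypoxia-inducible factor controlled mainly at the protein level, stood at 137, 145 and 139 CPM. Of 21 hypoxia response genes, 9 were higher and 2 lower in CHIR+Activin, and 13 higher and 2 lower in CHIR, with medians of 0.44 and 0.78. EGLN1, an oxygen sensor, led in CHIR at 24.7 against 7.20 CPM in BMP4, with the angiogenic factor VEGFA at 31.4 against 9.34 CPM. CA12, a carbonic anhydrase (12.5 against 95.3 CPM), and EGLN3, another oxygen sensor (19.5 against 76.5 CPM), were the 2 exceptions past 1.5-fold in CHIR.

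Integrated stress response genes were at least 1.5-fold higher for 6 of 15 in CHIR+Activin and 9 of 15 in CHIR, led in CHIR by CHAC1 (2.73) and SESN2 (1.90). Of 25 nuclear genes of oxidative phosphorylation, 0 were 1.5-fold apart in any of the 3 pairs, with medians of 0.08 in CHIR+Activin over BMP4 and 0.08 in CHIR over BMP4. Tricarboxylic acid cycle genes had medians of 0.11 and 0.11 over 16 genes. The succinyl-CoA ligase subunit SUCLA2 stood at 152 CPM in CHIR+Activin, 150.2 CPM in CHIR and 101 CPM in BMP4, and PDHB, a subunit of pyruvate dehydrogenase, stood at 140 CPM in CHIR+Activin, 117 CPM in CHIR and 205 CPM in BMP4. All 7 pentose phosphate genes stayed inside 1.5-fold. Marker lists of cell types also differed between the libraries, with no marker at 0 in any library. Pluripotent markers summed to 5483 CPM in CHIR+Activin, 5296 CPM in CHIR and 4283 CPM in BMP4, with 7 of 15 and 6 of 15 at least 1.5-fold higher than BMP4 and 0 lower. Amnion or trophoblast markers summed to 14.95, 12.2 and 243.7 CPM, with 5 of the 5 measured lower in both. Definitive endoderm markers summed to 303, 150.2 and 627 CPM, with 5 of 6 lower and 1 higher in both. Nascent mesoderm markers summed to 53.3 CPM in CHIR+Activin, 12.05 CPM in CHIR and 675 CPM in BMP4, with 9 of the 9 measured lower than BMP4 in both. The part of cell makeup in the members' ratios was not tested, and ratios within classes of cells are given below.

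The members' levels were also compared between cells of a library sorted by DDIT4. DDIT4 encodes an inhibitor of mTORC1 that is induced by low oxygen and by nutrient or protein stress. Cells were sorted by their DDIT4 UMIs after thinning to 10000 UMIs per cell, which left 6543 cells of CHIR+Activin, 6892 of CHIR and 7041 of BMP4 and left out 333, 192 and 2360 shallower cells. Levels within a class use the full counts. Cells with 0 DDIT4 UMIs made up 41.05% of CHIR+Activin, 27.9% of CHIR and 80.4% of BMP4, and cells with 4 or more made up 12.9%, 29.02% and 0.625%.

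The summed level of the 10 members was higher at each higher DDIT4 level. In CHIR+Activin it was 2592, 3105, 3553, 4039 and 4535 CPM in cells with 0, 1, 2 to 3, 4 to 7 and 8 or more DDIT4 UMIs. In CHIR it was 2467, 3063, 3663, 4320 and 5049.8 CPM over the same levels. In BMP4 it was 2118, 2477 and 2971 CPM in cells with 0, 1 and 2 to 3 UMIs, and 3577 CPM in the 42 cells with 4 to 7. In CHIR each of the 10 members was higher at every step of DDIT4, and in BMP4 each was higher at every step from 0 to 2 to 3 UMIs. In CHIR+Activin the exceptions were ALDOA between 1 and 2 to 3 UMIs and HK2, ALDOA and SLC16A3 between the upper levels, the last of which held only 109 cells.

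SLC16A3 had the widest range of the members in CHIR, measured as a ratio of 4 or more over 0 UMIs. In CHIR it stood at 8.90, 16.9, 24.6, 32.2 and 41.6 CPM from 0 to 8 or more DDIT4 UMIs, and in CHIR+Activin at 8.41, 15.3, 20.6, 25.2 and 25.1 CPM. In BMP4 it stood at 7.86, 11.2 and 12.8 CPM from 0 to 2 to 3 UMIs. At 0 UMIs the libraries were therefore close together, and they separated with DDIT4.

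LDHA and PGK1 behaved alike. LDHA stood at 402, 560.1, 715, 895 and 1099.9 CPM over the 5 levels in CHIR and at 482, 639.6, 764, 919 and 1081 CPM in CHIR+Activin. PGK1 stood at 431, 599, 746, 921 and 1104 CPM in CHIR and at 443, 582, 716, 847 and 958 CPM in CHIR+Activin. In BMP4 LDHA stood at 395, 503 and 652 CPM and PGK1 at 329.98, 433 and 586 CPM from 0 to 2 to 3 UMIs. Within DDIT4 classes both genes were lowest in BMP4, and up to 7 DDIT4 UMIs LDHA was highest in CHIR+Activin.

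Cells with 4 or more DDIT4 UMIs were set against cells with 0 in CHIR+Activin (844 and 2686 cells) and CHIR (2000 and 1920 cells). In CHIR+Activin 5 of 9 members were at least 1.5-fold higher and none lower, where 2.43% of genes were higher and 2.82% lower, and the members' median was 0.96, beside -0.04 over all genes. In CHIR 7 of 10 were at least 1.5-fold higher and none lower, where the background was 2.74% higher and 1.88% lower, with a median of 0.86, beside -0.04 over all genes. At 2-fold, 3 of 9 and 5 of 10 members passed, where 0.692% and 0.972% of genes did. SLC16A3 was among the members counted in both libraries, and passed the 10 CPM filter only through the higher DDIT4 class. It stood at 25.2 against 8.41 CPM in CHIR+Activin and at 34.2 against 8.90 CPM in CHIR. ALDOA passed the filter in CHIR only through that class too, and was not 1.5-fold higher. BMP4 had too few cells with 4 or more, so cells with 2 or more (406) were set against cells with 0 (5660), a contrast chosen after that was seen. There 5 of 9 members were at least 1.5-fold higher and none lower, where 4.32% of genes were higher and 5.09% lower. The members' median was 0.75, and SLC16A3 again passed the filter only through the higher class (13.98 against 7.86 CPM). The same BMP4 classes differed in cell identity. SOX2 stood at 76.4 CPM with 2 or more DDIT4 UMIs against 17.5 CPM with 0, and MESP1 at 69.9 against 269.8 CPM. Pluripotent markers were at least 1.5-fold higher for 8 of 15 (median 0.72), streak markers lower for 5 of 10 (median -0.74) and nascent mesoderm markers lower for 9 of 9 (median -1.92), and their part in the members' ratios was not tested.

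Members differed in how strongly they followed DDIT4. In CHIR the log2 ratio of 4 or more over 0 UMIs was 1.94 (interval 1.80 to 2.10) for SLC16A3, 1.22 (interval 1.20 to 1.25) for LDHA and 1.20 (interval 1.15 to 1.24) for SLC2A1. PGK1 (1.16) and ENO2 (1.01) followed. HK2 (0.72), SLC2A3 (0.70), ALDOA (0.56), ENO1 (0.53) and PFKP (0.41, interval 0.34 to 0.48) were lower. In CHIR+Activin SLC16A3 was again highest at 1.58 (interval 1.38 to 1.78), followed by SLC2A1 (1.06), ENO2 (28.2 against 14.1 CPM), PGK1 and LDHA (0.96 each), and SLC2A3 was lowest at 0.34 (interval 0.30 to 0.37). The transporters thus split, SLC2A1 with the strongly graded members and SLC2A3 with the weakly graded ones. The SLC16A3 ratio in CHIR+Activin was 0.93 when cells were thinned to 5000 UMIs and cut at 2 or more.

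**Figure D3:**
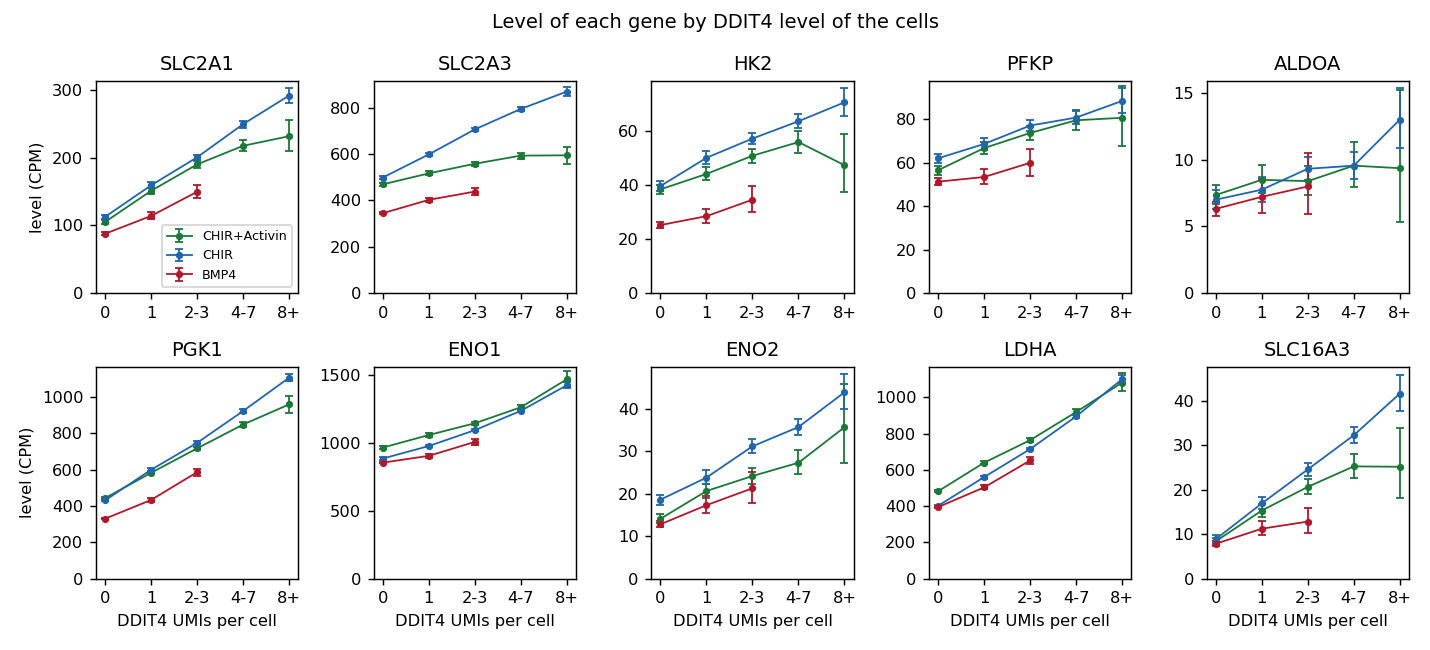
Level of each gene in CPM in cells with 0, 1, 2 to 3, 4 to 7 and 8 or more DDIT4 UMIs after thinning, for CHIR+Activin, CHIR and BMP4, with bars for the exact 95% counting interval and axes from 0; classes under 50 cells are left out, so BMP4 ends at 2 to 3. Lines climb for nearly all genes, most steeply for SLC16A3, LDHA, PGK1 and SLC2A1. The BMP4 line lies below the others for every gene at every level shown.

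Members were graded with DDIT4 within cells of like SOX2 status too. In CHIR+Activin, 5 of 9 members were at least 1.5-fold higher with 4 or more DDIT4 UMIs among SOX2-positive cells (background 2.95%) and 6 of 9 among SOX2-negative cells (background 3.01%). In CHIR, 7 of 9 were among SOX2-positive cells (background 3.33%) and 8 of 10 among SOX2-negative cells (background 2.80%). ALDOA is 1 of those 8, at 10.7 against 7.08 CPM, and passed the 10 CPM filter only through the higher DDIT4 class. SLC16A3 passed by that class alone in both SOX2 classes of CHIR+Activin and in SOX2-positive cells of CHIR. The CHIR medians were 1.08 in SOX2-positive and 0.82 in SOX2-negative cells.

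Other gene lists differed along DDIT4 beside the members. Of 21 hypoxia response genes, 14 were at least 1.5-fold higher and 1 lower in CHIR+Activin, and 16 higher and 0 lower in CHIR, with medians of 0.93 and 1.19. Among them the transcriptional repressor BHLHE40 stood at 30.9 CPM with 4 or more DDIT4 UMIs against 8.50 CPM with 0 in CHIR, and ANKRD37 at 23.1 against 5.02 CPM. In BMP4, with 2 or more UMIs over 0, 12 of 21 were higher and 2 lower. Among integrated stress response genes, 7 of 15 were higher in CHIR+Activin, 9 of 16 in CHIR and 3 of 14 in BMP4, and the medians were 0.57, 0.65 and 0.18. Of the other glycolysis genes, 4 of 14 were higher in CHIR+Activin and 3 of 13 in CHIR, among them ALDOC (1.13 and 1.17) and, in CHIR, PKM (0.71). PKM was therefore higher with DDIT4 within CHIR although it stood lower in CHIR than in BMP4.

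Mitochondrial transcripts ran the other way. Of the 13 mitochondrially encoded genes, 2 were at least 1.5-fold lower in CHIR+Activin and 6 in CHIR with 4 or more DDIT4 UMIs, and 1 was higher in each, MT-ND6, which lies on the other strand of the mitochondrial genome from the rest of these genes. MT-CO2, a subunit of cytochrome oxidase, stood at 3651 CPM with 4 or more DDIT4 UMIs against 6388 CPM with 0 in CHIR, while nuclear oxidative phosphorylation genes stayed inside 1.5-fold (0 of 25). The median share of mitochondrially encoded UMIs per cell was 5.03%, 4.70%, 4.33%, 3.81% and 3.30% over the DDIT4 levels of CHIR+Activin and 5.43%, 4.97%, 4.42%, 3.78% and 3.20% over those of CHIR. Median UMIs per cell were also lower, at 16339 with 4 or more DDIT4 UMIs against 18106.5 with 0 in CHIR+Activin and at 20877.5 against 24653.5 in CHIR. Streak markers also differed, with 7 of 10 at least 1.5-fold lower in CHIR+Activin and 3 of 9 in CHIR. The part of depth, mitochondrial share and streak markers in the members' grading was not tested.

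Within DDIT4 classes the members' ratios between libraries were smaller. The classes were set on thinned UMIs, and by full counts DDIT4 was not equal within them. It stood at 27.9, 42.8 and 8.61 CPM in CHIR+Activin, CHIR and BMP4 at 0 UMIs. At 2 to 3 UMIs it stood at 218, 244 and 170 CPM. Among cells with 0 DDIT4 UMIs, the members' median in CHIR over BMP4 was 0.37, with 1 of 8 at least 1.5-fold higher (background 7.39%). Among all cells of at least 10000 UMIs it was 0.92, with 7 of 9 (background 7.92%). The sets of members were unlike, since SLC16A3 was left out at 0 UMIs. It stood under 10 CPM there, at 8.41 CPM in CHIR+Activin, 8.90 CPM in CHIR and 7.86 CPM in BMP4. With 1 UMI the median was 0.47 and 2 of 9 passed (background 6.25%), and with 2 to 3 UMIs it was 0.42 and 3 of 9 passed (background 5.08%). In CHIR+Activin over BMP4 the median was 0.27 at 0 UMIs, where 1 of 8 passed (background 5.02%), and 0.57 over all such cells.

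Members separated in this respect. LDHA and ENO1 were at 0.61 and 0.28 in CHIR over BMP4 among all these cells. Among cells with 0 thinned DDIT4 UMIs they were at 0.03 (interval 0.00 to 0.05) and 0.05 (interval 0.03 to 0.07). HK2 stayed at 0.65 (interval 0.57 to 0.74), compared with 1.01 among all, and SLC2A3 at 0.53 (interval 0.51 to 0.56), compared with 0.86. ENO2 stayed at 0.54 and PGK1 at 0.38. HK2 and SLC2A3 thus stood higher in CHIR also in the class of 0 thinned DDIT4 UMIs, while LDHA and ENO1 were nearly level. DDIT4 itself was higher in CHIR within that class, and its part in these ratios was not tested. Of CHIR+Activin over CHIR among cells with 0 UMIs, LDHA was at 0.26 and ENO2 at -0.40, and no member was 1.5-fold apart (background 0.980% higher and 0.286% lower).

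**Figure D4:**
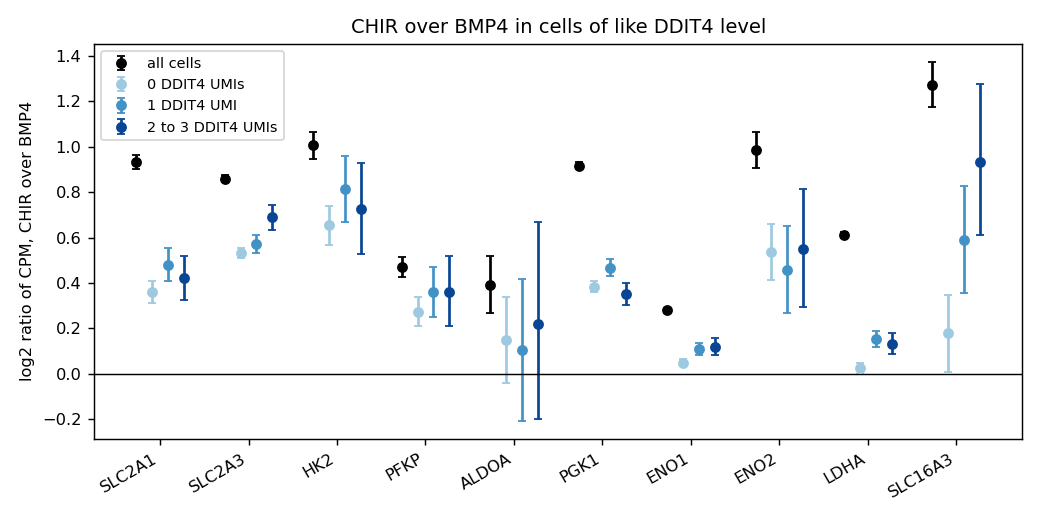
Log2 ratio of CPM in CHIR over BMP4 for each gene, among all cells with at least 10000 UMIs and among cells with 0, 1 and 2 to 3 DDIT4 UMIs, with bars for the exact 95% counting interval. The points within DDIT4 classes lie below the point for all cells for every gene, lowest for LDHA and ENO1 among the 9 other than ALDOA. HK2 is highest at 0 and 1 UMI and SLC16A3 at 2 to 3 UMIs.

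Classes by cell identity gave other patterns. SOX2-positive cells of BMP4 (982 cells, against 6059 SOX2-negative cells) had higher levels of all 9 members compared, with a median of 0.42. Of these, 2 of 9 were at least 1.5-fold higher, ENO2 (21.2 against 12.7 CPM) and PGK1 (521 against 333 CPM), where 5.28% of genes were higher and 4.80% lower, and 5 of 8 were with classes cut at 2 or more UMIs over 0. SLC2A1 stood at 129.8 against 89.2 CPM and LDHA at 553 against 405 CPM. The share of SOX2-positive cells was lowest in BMP4, and DDIT4 stood at 68.5 CPM in them against 23.3 CPM in SOX2-negative cells.

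In CHIR the sign was the other way. SOX2-positive cells (2971, against 3921 SOX2-negative cells) had lower levels of all 9 members, with a median of -0.14 and 0 of 9 at least 1.5-fold apart (background 0.193% higher and 0.518% lower). SLC16A3 had the lowest value, at 17.4 against 24.1 CPM. DDIT4 was lower in the SOX2-positive cells of CHIR as well, at 200.4 against 273 CPM. In CHIR+Activin 6 of 9 members were higher and 3 lower in SOX2-positive cells, with a median of 0.09 and 0 of 9 past 1.5-fold (background 0.544% higher and 1.67% lower). DDIT4 there was nearly level, at 143 against 140.3 CPM. The part of DDIT4 level in these signs was not tested.

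The gap between libraries was also read within SOX2 classes. These too were set on thinned UMIs, and by full counts SOX2 was not equal within them. In SOX2-negative cells of CHIR+Activin, CHIR and BMP4 it stood at 28.2, 29.9 and 5.39 CPM. In SOX2-positive cells it stood at 147, 122.5 and 134 CPM. The part of this difference in the members' ratios was not tested. Among SOX2-positive cells the members' median in CHIR over BMP4 was 0.32, with 1 of 9 at least 1.5-fold higher (background 2.56%). Among SOX2-negative cells it was 1.07, with 7 of 9 past 1.5-fold (background 9.27%). SLC16A3 stood at 0.76 (interval 0.54 to 0.99) in SOX2-positive and 1.51 (interval 1.40 to 1.63) in SOX2-negative cells, and PGK1 at 0.30 and 1.11. In SOX2-negative cells SLC16A3 passed the 10 CPM filter only through the CHIR-treated libraries, with 8.44 CPM in BMP4. In CHIR+Activin over BMP4 the median was 0.22 with 0 of 9 past 1.5-fold in SOX2-positive cells (background 1.60%) and 0.63 with 6 of 9 in SOX2-negative cells (background 5.88%).

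Other classes were compared in the same way. In CHIR over BMP4 the members' median was 0.91 in TBXT-positive cells, with 6 of 9 at least 1.5-fold higher (background 8.13%), and 0.58 in TBXT-negative cells, with 4 of 9 (background 5.67%). In MESP1-negative cells it was 0.53, with 4 of 9 (background 4.66%). The smallest medians over BMP4 given here were in cells with a SOX2 UMI but no TBXT or MESP1 UMI after thinning. They numbered 2390 in CHIR+Activin, 2159 in CHIR and 498 in BMP4. By full counts TBXT stood at 12.9, 18.6 and 12.8 CPM in them. There the median was 0.07 in CHIR+Activin over BMP4, with 0 of 9 past 1.5-fold (background 1.56%), and 0.11 in CHIR over BMP4, with 1 of 9, SLC16A3 (background 2.53%). LDHA stood at 658, 626 and 624 CPM in these cells of CHIR+Activin, CHIR and BMP4, and PGK1 at 625, 669.9 and 622 CPM. The intervals of 5 of 9 members lay above 0 in CHIR over BMP4, and those of 6 of 9 in CHIR+Activin over BMP4. In the latter comparison ENO2 lay below 0, at -0.28 (interval -0.49 to -0.07).

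TBXT-positive cells had lower levels of all 9 members in each library, with medians of -0.21 in CHIR+Activin, -0.17 in CHIR and -0.37 in BMP4. Past 1.5-fold were 0 of 9 in CHIR+Activin (background 1.23% lower), 0 of 9 in CHIR (background 0.153% lower) and 2 of 9 in BMP4 (background 4.82% lower), SLC2A3 and ENO2, but 0 of 9 in BMP4 with cells thinned to 5000 UMIs. SLC2A3 stood at 313 CPM in TBXT-positive against 479 CPM in TBXT-negative BMP4 cells. ENO1 was almost level in all, at 1054 against 1075 CPM in CHIR+Activin and 868 against 889 CPM in BMP4. HK2 was level in BMP4, at 26.2 against 26.5 CPM.

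MESP1-positive cells were 173 in CHIR+Activin, 40 in CHIR and 3984 in BMP4, so CHIR was not compared. In BMP4, 2 of 9 members were at least 1.5-fold lower in them (background 6.44%). SLC2A3 stood at 279 CPM in MESP1-positive against 465 CPM in MESP1-negative cells, and ENO2 at 9.84 against 19.6 CPM. ENO2 passed the 10 CPM filter only through the MESP1-negative cells. HK2 (26.9 against 25.5 CPM) and ENO1 (872 against 877 CPM) were nearly level, and LDHA stood at 409 against 452 CPM. In CHIR+Activin 3 of 9 were at least 1.5-fold lower (background 6.70%). These were SLC2A1 at 83.3 against 150.4 CPM, ENO2 at 12.4 against 19.8 CPM and SLC16A3 at 8.27 against 14.97 CPM. SLC16A3 had 28 UMIs in the positive class and passed the filter only through the negative class of CHIR+Activin. SLC2A3, lower in MESP1-positive cells of BMP4 by 0.73 on the log2 scale, differed by only -0.08 there. With classes cut at 2 or more UMIs over 0, 5 of 9 were lower, and SLC2A1 moved to -1.73, ENO2 to -1.48 and SLC16A3 to -2.08 in CHIR+Activin.

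**Figure D5:**
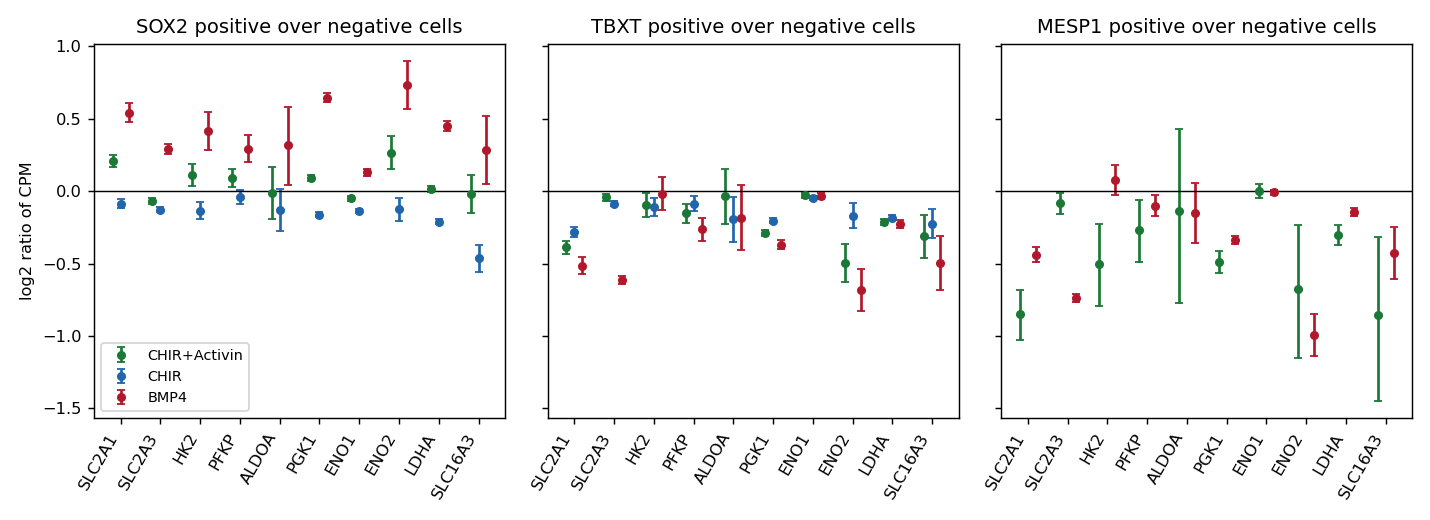
Log2 ratio of CPM in cells with a SOX2, TBXT or MESP1 UMI after thinning over cells without one, for each gene in CHIR+Activin, CHIR and BMP4, with bars for the exact 95% counting interval; CHIR has too few MESP1-positive cells. SOX2-positive cells are higher in BMP4 and lower in CHIR for every gene, and TBXT-positive cells lie below 0 for every gene and library.

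Members varied over cells to unlike degrees. The summed UMIs of the 10 members per thinned cell had a 10th percentile, median and 90th percentile of 18, 29 and 48 in CHIR+Activin, 18, 33 and 57 in CHIR and 14, 21 and 32 in BMP4. The variance over the mean of that sum was 4.39, 6.63 and 2.52, where counting noise alone gives about 1. For single members it was highest for LDHA, PGK1 and SLC2A3, at 2.99, 2.97 and 2.69 in CHIR. In BMP4 SLC2A3 had the highest of the members, 2.55, while PGK1 had 1.66 and LDHA 1.81. ENO1 was found in 100%, 99.96% and 99.94% of thinned cells of CHIR+Activin, CHIR and BMP4, and SLC16A3 in 13.9%, 18.9% and 8.07%. Unthinned, SLC16A3 was found in 22.1%, 36.1% and 11.9%. No cell type of these colonies was taken as lacking these genes, so free RNA was read from empty droplets instead, which the BMP4 matrix alone holds. In its 1592061 barcodes of at most 100 UMIs, every member was present, with HK2 at 66.5 CPM against 26.1 CPM in cells, SLC2A3 at 638 against 356 CPM and PGK1 at 382 against 357 CPM. These barcodes held 7342374 UMIs together, of which 134 were of SLC16A3. How far free RNA adds to low shares such as that of SLC16A3 was not tested, and it could not be read in CHIR+Activin and CHIR.

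Correlations over cells describe which members varied together. Over thinned cells, Pearson's r between PGK1 and LDHA was 0.47, 0.58 and 0.27 in CHIR+Activin, CHIR and BMP4, the highest of the 45 pairs in each library. ENO1 with LDHA gave 0.36, 0.44 and 0.20, and SLC2A1 with PGK1 gave 0.34, 0.41 and 0.12. SLC2A3 with LDHA gave 0.16, 0.37 and 0.01, so these were almost unrelated in BMP4. The median over pairs was 0.09, 0.13 and 0.03.

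The genes most like the members were ranked by the mean over the libraries of r with their summed UMIs, among 3515 other genes of at least 50 CPM in all libraries, whose median r was -0.01. BNIP3, a mitophagy receptor, came first, with 0.55, 0.64 and 0.31 in CHIR+Activin, CHIR and BMP4, and FAM162A second, with 0.48, 0.56 and 0.26. C4orf3, IGFBP2, EEF1A1, TPI1, TUBB2B, GAPDH, S100A10 and RPL3 completed the 10, with TPI1 and GAPDH being glycolysis enzymes. BNIP3 stood at 492 CPM in CHIR+Activin, 591 CPM in CHIR and 226 CPM in BMP4, the same order as most members. The 5 lowest were all encoded by the mitochondrial genome, MT-CO2 (-0.59, -0.66 and -0.30), MT-CO3, MT-ND3, MT-CYB and MT-ND5. These correlations are descriptions, since cells of a library share its preparation and the UMIs of a thinned cell sum to a fixed total.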

How the data were processed

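RNA was measured in 3 single-cell libraries, 1 per treatment. Values are deposited as unnormalized UMI counts for each gene in each droplet. Per the file headers the software was Cell Ranger 8.0.1, and the submitters' processing notes also name Seurat. No genome build or annotation of the counting was stated there. The BMP4 file held all 1935344 droplet barcodes, so those with at least 3739 UMIs (10% of the UMIs at percentile 99 among its 10000 largest barcodes) were called as cells, 9440 with 92.6% of its UMIs. The filters named in the report removed 515, 622 and 39 barcodes from CHIR+Activin, CHIR and BMP4. Doublets were kept, and a Scrublet-style score served as an alternative.

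UMIs were summed over cells to CPM with exact Poisson intervals, and log2 ratios carry exact conditional binomial intervals. Classes needed 50 cells each, and genes compared between classes 30 UMIs in both together. A gene could pass the CPM filter by a single side, as SLC16A3, ENO2 and ALDOA did in some comparisons, and always by the side where it stood higher. A library total puts 3 counts at 0.0230, 0.0162 and 0.0219 CPM in CHIR+Activin, CHIR and BMP4. The steps were tested on simulated data, computed in Python 3.11.15 with numpy 2.4.6 and scipy 1.17.1. Named genes were the members, in each list and comparison the 2 highest and 2 lowest ratios, and the ranked genes most and least like the members. The members, lists and classes were chosen with earlier results of these data known.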

Additional observations from a re-analysis of the deposited data

Results flagged for a closer look

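The log2 ratio of SOX2-positive over SOX2-negative cells had opposite signs between libraries for 8 members, each with an interval that excluded 0. The difference between libraries was not tested, since each treatment was 1 library. In CHIR+Activin, CHIR and BMP4, SLC2A1 had 0.21, -0.09 and 0.54, HK2 had 0.11, -0.14 and 0.42, PGK1 had 0.09, -0.16 and 0.65, and ENO2 had 0.27, -0.13 and 0.73. SLC2A3 had -0.07, -0.13 and 0.29, and ENO1 had -0.05, -0.14 and 0.13. LDHA had -0.21 in CHIR and 0.45 in BMP4, and SLC16A3 had -0.46 in CHIR and 0.29 in BMP4, while their CHIR+Activin intervals included 0. No group had enough libraries to look for outlying samples.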

How the results depend on the processing

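Over 980 alternative values of single members, 783 moved by less than their interval, 197 moved by more and 0 called values changed sign. All 304 alternatives of the 37 values past 1.5-fold kept their sign. Of 216 alternative counts of members past 1.5-fold, 209 stayed within 1.5 times. In CHIR+Activin over BMP4 the count of higher members was 2 in place of 4 with a minimum of 50 CPM, by which only 6 members were compared. In CHIR+Activin over CHIR, 1 member in place of 0 was lower when cells were weighted equally. With classes cut at 2 or more UMIs over 0, the counts were 1 lower in place of 0 for TBXT in CHIR+Activin, 5 lower in place of 3 for MESP1 in CHIR+Activin, 1 lower in place of 0 for SOX2 in CHIR and 5 higher in place of 2 for SOX2 in BMP4. With cells thinned to 5000 UMIs, 0 in place of 2 were lower for TBXT in BMP4, and SLC16A3 moved from -0.86 to -1.52 for MESP1 in CHIR+Activin. The cause of these moves was not tested. No scaling shifted the median of all genes by over 0.1 on the log2 scale. The MESP1 classes of CHIR were not run because of too few cells. No paired analysis was possible because each treatment was 1 library with no shared replicate numbers. Depth limits ALDOA, SLC16A3 and ENO2 in small classes, and doublets and free RNA remain in the values given.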

Other observations

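Classes by other lineage factors were added after values of the members had been seen, and they carry no test. In CHIR+Activin, 136 cells had a UMI of SOX17, a factor of endoderm and germ cells. In them 5 of 9 members were at least 1.5-fold lower and 0 higher, where 9.51% of genes were lower and 8.73% higher. SLC16A3 was among the 5 and passed the CPM filter only through the SOX17-negative cells (8.40 against 14.9 CPM). SLC2A1 stood at 63.7 CPM in SOX17-positive against 150.5 CPM in SOX17-negative cells and PGK1 at 355 against 592 CPM. SLC2A3 went the other way, at 711 against 510.3 CPM, so the glucose transporters differed in direction within that class.

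In BMP4, 1228 cells had a UMI of GATA3, a factor of amnion and trophoblast. SLC2A3 stood at 477 CPM in GATA3-positive against 333 CPM in GATA3-negative cells, and HK2 at 19.3 against 27.9 CPM, with 0 of 9 members past 1.5-fold in either direction (background 4.05% higher and 2.39% lower). SOX17-positive cells of BMP4 (1057) had ENO2 at 21.9 against 12.5 CPM in SOX17-negative cells, 1 of 9 members past 1.5-fold higher (background 3.09%), and HK2 at 19.1 against 27.7 CPM. HAND1-positive cells of BMP4 (2409), HAND1 being a factor of lateral and extraembryonic mesoderm, had ENO2 at 9.70 against 16.4 CPM, 1 of 8 members past 1.5-fold lower (background 4.01%). ENO2 passed the 10 CPM filter there only through the HAND1-negative cells. FOXA2-positive cells, FOXA2 being a factor of endoderm and anterior streak, had SLC16A3 at 27.1 against 18.2 CPM in CHIR (2226 cells) and at 16.2 against 8.54 CPM in BMP4 (166 cells). In CHIR no member passed 1.5-fold (background 0.741% higher), and in BMP4 2 of 9 did (background 1.67% higher), SLC16A3 and ENO2. In BMP4 SLC16A3 passed the CPM filter only through the FOXA2-positive cells.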
